A study of Mus musculus with 2 samples.

Results

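Hepatocyte-like cells made up 199 of the 7355 cells that passed the quality limits in a single-cell experiment on mouse fetal liver, out of 7863 cells in the deposited matrix. A cell was taken as hepatocyte-like when the unique molecular identifiers (UMIs, one per captured transcript molecule) of 3 genes, *Afp*, *Apoa1* and *Rbp4*, made up at least 1% of all its UMIs, whatever its antibody counts were. The quality limits were 300 to 5000 detected genes and at most 9% mitochondrial UMIs. The 199 cells are 2.71% of the kept cells (exact 95% binomial interval 2.35 to 3.10%, for the sampling of cells only).

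The cells came from livers of C57BL/6 embryos at e13.5, dissociated and depleted in part of Ter119+ cells, so their shares are not those of the intact liver. They were stained with 9 antibodies and a control IgG, each carrying a DNA barcode, and the cDNA library and the antibody library were sequenced from the same cells (CITE-seq, in which transcripts and surface proteins are counted together). The labels call the material primary haematopoietic or erythroid progenitor cells and give no other genotype, treatment or replicate. There was 1 library of each kind, so no spread between animals or libraries was measured and no test was made. Every interval below covers only the counting of UMIs or, for medians and shares of cells, the sampling of cells in this library.

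The fetal liver is the main site of blood formation at this stage, and its own parenchymal cells are hepatoblasts and early hepatocytes. Hepatoblasts arise from endoderm, can give rise to hepatocytes and bile duct cells, and are known for α-fetoprotein, the main plasma protein of the fetus, which gives way to albumin after birth. Hepatocytes secrete most plasma proteins, take up and make lipids, and surround the blood-forming cells, for which they are a source of growth factors. Erythroid cells, which dominate the organ, are marked by the transferrin receptor (CD71) at intermediate stages and by Ter119 later.

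Few cells lay near the limit, which fell within a sparse range and not in a gap. The 3 genes made up between 1.04% and 10.0% of the UMIs in the 199 cells, with a median of 5.43%, and a median of 0.0169% in the 7156 other kept cells. Of those others, 7139 cells were under 0.2%, 11 cells lay between 0.2 and 0.5% and 6 cells between 0.5 and 1%, and inside the limit 7 cells lay between 1 and 2%, 8 between 2 and 3% and 19 between 3 and 4%. The highest cell outside the limit held 0.959% and the lowest inside it 1.04%. The 5 cells just outside had 1250 to 1727 CD71 antibody counts and 8627 to 53363 CPM of adult globin (UMIs per 1000000 UMIs of the cell), while the 5 just inside had 21 to 1869 CD71 counts and 7658 to 53070 CPM of globin. These values chose the cells, or were read in cells chosen by them, and are given as a description. *Alb*, which the rule did not use, was read in 199 of 199 cells, against 39.2% of the other kept cells. It reached 1% of the UMIs in 176 of the 199, with a lowest cell of 1738 CPM, a median of 17093 CPM and a highest of 42766 CPM. At the limit *Alb* overlapped, with 2032 to 4751 CPM in the 5 cells just outside and 1738 to 5093 CPM in the 5 just inside. *Kit*, a marker of the progenitors that the labels name, was at 3.35 CPM against 27.7 CPM in the other kept cells.

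**Figure D1:**
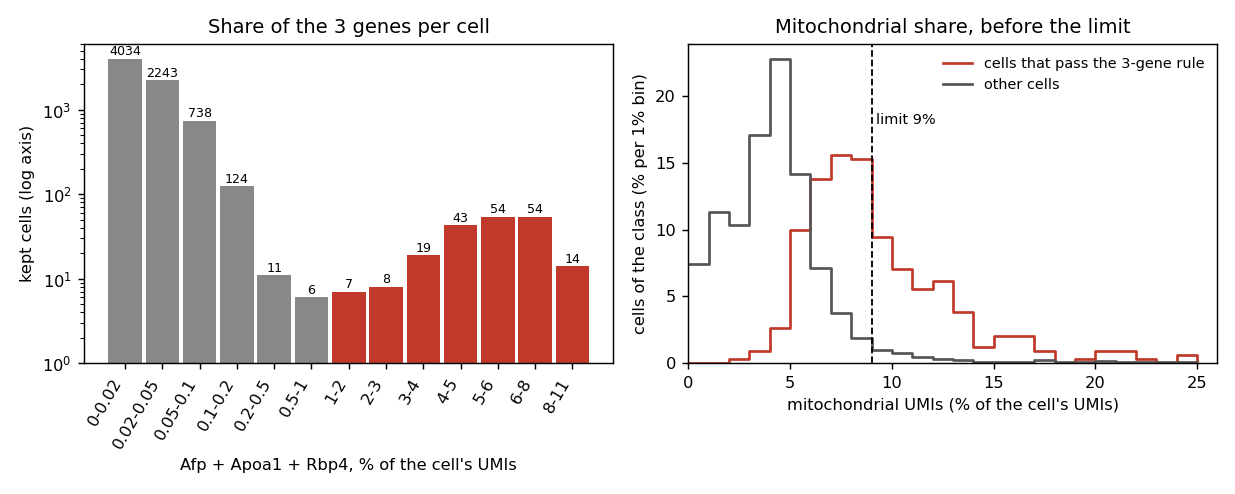
Left, the number of kept cells (log axis) by the share of their UMIs that the 3 genes make up, with the hepatocyte-like cells in red. Right, the mitochondrial share of UMIs before the 9% limit, as the percent of each class of cells per 1% bin; 153 of the 352 cells that pass the 3-gene rule lie above the limit.

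The mitochondrial limit acted unevenly. Without it 352 cells passed the 3-gene rule, and it removed 153 of them (43.5%, interval 38.2 to 48.8%) against 327 of 7483 other cells (4.37%, interval 3.92 to 4.86%). Hepatocyte-like cells therefore made up 2.71% of cells with the limit and 4.49% (interval 4.04 to 4.97%) without it. Within the limit, the hepatocyte-like cells held a median of 7.05% mitochondrial UMIs, against 4.07% in the other kept cells. The 13 mitochondrial genes together stood at 69450 CPM and 41508 CPM, a ratio of 1.67 (interval 1.66 to 1.68). What sets the mitochondrial share of these cells was not tested.

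The hepatocyte-like cells were read more deeply than most. They held between 2861 and 26717 UMIs, with a median of 13001, and a median of 3298 genes. The other kept cells had medians of 5778.5 UMIs and 1917 genes. For comparison, 5 groups of other kept cells were formed, from antibody counts or from a few marker genes. These were 86 cells with complement C1q genes (a macrophage product), 71 cells with *Pf4*, *Ppbp* and *Itga2b* (megakaryocyte genes), 1628 cKit-high cells with low Ter119, 1790 Ter119-high cells and 122 cells low for CD71, Ter119 and cKit. The last group, called antibody-low below, had a median of 151.5 CD11b antibody counts, against 13 in the hepatocyte-like cells. A list of 14 myeloid marker genes summed to 41782 CPM in it. The cKit-high cells were closest in depth, with a median of 10733 UMIs. Scrublet called 7 of the 199 cells doublets, or 3.52% (interval 1.43 to 7.11%), and 1.45% of the other kept cells.

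Over all genes with at least 50 UMIs in the kept cells, 451 of 11276, or 4.00%, were at least 4-fold higher in the hepatocyte-like cells than in all other kept cells, and 159, or 1.41%, at least 4-fold lower. Levels here are pooled CPM, the summed UMIs of a gene per 1000000 UMIs of the group, and the 4-fold limit and the order of genes were set on CPM plus 10, while the ratios printed are of plain CPM. With 1 CPM added in place of 10, 989 genes were higher and 641 lower, and against antibody-low cells alone 405 were higher and 236 lower, of which 362 and 47 were among the 451 and 159. In these 3′ UMI counts a transcript is tagged once, so levels were not divided by length. The filter of 50 UMIs lets in a gene that is high in the hepatocyte-like cells alone, and 413 genes passed only through the UMIs of these cells, 148 of them among the 451. Of the 10863 genes that the other cells alone carried past it, 303, or 2.79%, were higher. The cells were chosen by 3 of these genes, so the ratios and counts that follow describe the cells and test nothing. The median log2 ratio over the 11276 genes was -0.10, with quartiles of -0.44 and 0.31. On CPM plus 10 the genes with the largest ratio were, besides the 3 of the rule, *Ttr* (the thyroid hormone carrier), *Alb*, *Serpina6* (the corticosteroid carrier), *Apom*, *Apoa2*, *Serpina1b* and *Trf* (transferrin). For *Afp*, *Rbp4*, *Apoa1*, *Ttr*, *Dlk1* and *H19*, single cells varied within a range far above the other cells' pooled level. *Afp* had a lowest cell of 2781 CPM, a median of 29644 and a highest of 63230 CPM, *Rbp4* had 2423, 14403 and 27104 CPM, and *Apoa1* had 1385, 10146 and 30588 CPM. These 3 genes chose the cells. *Ttr* had 519, 7973 and 25555 CPM in the lowest, median and highest cell, *Dlk1* 587, 2639 and 5081 CPM, and *H19* 1151, 3616 and 8722 CPM, whereas *Meg3* had 0 UMIs in its lowest cell, a median of 2331 and a highest of 8394 CPM. The lowest cell was also at 0 UMIs for *Serpina1a*, *Fgg*, *Serpinf2*, *Ahsg*, *Spp2*, *Fabp1*, *Aadac* and *Serpinc1*, which are among the 25 genes with the largest ratio. *Ttr* stood at 8294 CPM pooled in the hepatocyte-like cells and 31.1 CPM in the others, a ratio of 267 (interval 254 to 281). *Serpina6* had 3940 and 14.6 CPM, a ratio of 270 (interval 251 to 291), and *Alb* 17689.5 and 77.9 CPM, a ratio of 227 (interval 220 to 235). The 25 genes with the largest ratio also held the imprinted noncoding RNAs *H19* and *Meg3* and *Bex2*, which had 1684 and 13.4 CPM. *Aadac*, a lipid and drug hydrolase, *Fabp1*, the liver fatty acid binding protein, and *Dlk1*, a membrane protein of hepatoblasts, were also among the 25.

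**Figure D2:**
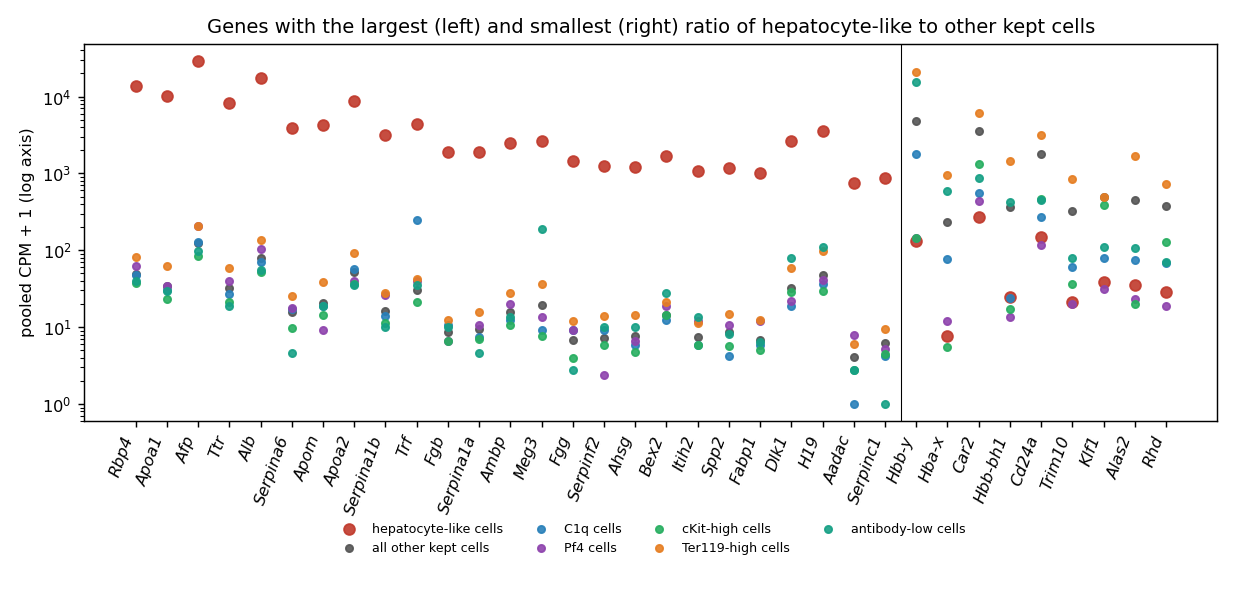
Pooled CPM plus 1 (log axis) of the 25 genes with the largest and of 9 of the 10 with the smallest ratio of hepatocyte-like cells over all other kept cells, 1 point per group of cells. For each of the 25 genes on the left the red points of the hepatocyte-like cells lie above all other groups; Trf stands out in the C1q cells and Meg3 in the antibody-low cells.

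Albumin and α-fetoprotein are encoded by neighbouring genes on mouse chromosome 5, *Alb* from 90460870 to 90476602 and *Afp* from 90490714 to 90508907, both on the plus strand (RefSeq, GRCm38.p6, the assembly that mm10 names). RefSeq promoters, 250 bases before to 50 after a gene's start, were at hand for 21 of the 25 leading genes, with none for *Ttr*, *Serpina6*, *Trf* and *H19*. The 6 letters GTTAAT, which open the palindrome known for binding the liver factor HNF1, were found on either strand in 6 of the 21 (*Afp*, *Alb*, *Serpina1b*, *Serpina1a*, *Fgb* and *Fabp1*), and in 8.24% of all 27025 genes with a promoter. TGTTTAC, the letters of forkhead factors such as FOXA, was in 3 of the 21 (*Rbp4*, *Apoa2* and *Dlk1*) and in 4.05% of all genes, and TATAAA was in 6 of the 21 and in 15.7% of all genes. CAAAGTCCA, read as an HNF4 site, and TTGCGCAA, a C/EBP palindrome, were in 0 of the 21, and in 0.555% and 0.207% of all genes. Each match is a description of letters and no evidence of binding. The 120 bases before the start of 4 genes that hold GTTAAT are shown, because these are the genes of albumin, α-fetoprotein, α1-antitrypsin and a fibrinogen chain, and the letters can be seen in them. They run 5′ to 3′ in the direction of the gene, with GTTAAT or its reverse complement ATTAAC in capitals.
Alb, chr5:90460750-90460869, plus strand: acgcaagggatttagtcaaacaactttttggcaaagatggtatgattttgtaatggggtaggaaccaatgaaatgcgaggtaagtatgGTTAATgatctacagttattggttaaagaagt
Afp, chr5:90490594-90490713, plus strand: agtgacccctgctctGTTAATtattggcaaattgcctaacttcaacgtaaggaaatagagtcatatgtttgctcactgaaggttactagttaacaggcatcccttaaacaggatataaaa
Serpina1b, chr12:103738190-103738309, minus strand: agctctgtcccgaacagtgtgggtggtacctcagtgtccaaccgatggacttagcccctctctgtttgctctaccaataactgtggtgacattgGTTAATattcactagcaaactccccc
Fgb, chr3:83049864-83049983, minus strand: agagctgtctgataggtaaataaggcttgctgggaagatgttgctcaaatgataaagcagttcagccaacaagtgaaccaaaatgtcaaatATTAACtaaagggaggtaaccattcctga
The capitals begin 32 bases before the start of *Alb*, 26 before that of *Serpina1b* and 29 before that of *Fgb*, and 105 bases before that of *Afp*.

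The lists of plasma carriers, apolipoproteins, coagulation, complement and protease inhibitor genes, without the receptors and transfer proteins among them, count 98 genes and held 13.4% of all UMIs in the hepatocyte-like cells and 0.0917% in the other kept cells. The 3 rule genes are among the 98, and without them the other 95 held 8.15% and 0.0713%. Of the plasma carriers tested, 18 of 19 were at least 4-fold higher (all genes, 4.00%), and 0 were lower (all genes, 1.41%). *Afp* and *Rbp4*, which chose the cells, are among the 19, and without them 16 of 17 were higher. The list holds 26 genes, and the other cells alone carried 15 past the filter, of which 14 were higher. Haptoglobin (*Hp*), a binder of free haemoglobin, was the exception, with 7.53 CPM in the hepatocyte-like cells and 20.9 CPM in the others. Hemopexin (*Hpx*), the heme binder, was at 719 and 4.04 CPM. Of the acute phase genes, serum amyloid P (*Apcs*) was at 46.9 against 0.0935 CPM, and *Saa1*, *Saa2*, *Orm1* and *Lrg1* had 0 UMIs among the 2390283 of the hepatocyte-like cells, which allows up to 1.26 CPM.

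The lipoprotein genes followed the same pattern in part. Of 17 tested, 13 were higher (all genes, 4.00%) and 0 lower (all genes, 1.41%), and 12 of 16 were higher without *Apoa1*, a rule gene. Of 13 that the other cells alone carried past the filter, 9 were higher, out of 23 read. *Apoa1*, *Apoa2*, *Apoe* and *Apom* stood at 10038, 8796, 6013 and 4305 CPM, and *Apob*, the structural protein of very low density lipoprotein, at 587 CPM against 3.44. *Apoc3* and *Apoc2*, which regulate and activate lipoprotein lipase, were at 12.6 and 2.93 CPM, and *Apoa4* at 0 UMIs. Of *Apoa1*, *Apoa2*, *Apoe* and *Apom*, *Apoe* was shared most with other cells, at 219 CPM in the other kept cells and 3406 CPM in the C1q cells. At lower levels, *Scarb1* was at 37.7 against 44.8 CPM in the other kept cells and *Angptl4* at 31.4 against 23.5 CPM.

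Coagulation genes were higher in 17 of 19 tested (all genes, 4.00%), and in 13 of the 14 that passed the filter in the other cells alone, out of 22 read. The 3 fibrinogen chains together had 3799 CPM (interval 3721 to 3878) and 15.45 CPM in the other cells, with *Fgb* at 1914, *Fgg* at 1443 and *Fga* at 443 CPM. Prothrombin (*F2*) had 576 CPM, factor X (*F10*) 325 CPM and antithrombin (*Serpinc1*) 869 CPM, while factor IX (*F9*) had 3.35 CPM on 8 UMIs. In *Pf4* cells *F10* was at 222 CPM. *F5* and *Pros1* were higher there than in the hepatocyte-like cells, at 137 against 55.6 and 141 against 10.0 CPM. The whole coagulation list summed to 542 CPM in *Pf4* cells and 9406 CPM in the hepatocyte-like cells. Among complement genes 8 of 12 tested were higher (all genes, 4.00%), and 3 of the 4 that passed in the other cells alone, out of 18 read. They were led by factor I (*Cfi*, 471 CPM) and *C3* (313 CPM), and of the late components *C8g*, *C8b* and *C8a* had 118, 56.9 and 28.4 CPM while *C9* and *C6* had 9 and 0 UMIs. Of 14 protease inhibitors read, 4 had 0 UMIs, all of the 10 tested were higher (all genes, 4.00%), and 7 of these passed the filter in the other cells alone. The 5 Serpina1 genes, which encode α1-antitrypsin, are close copies whose reads the counting could have split unevenly, and their sum was 6335 CPM (interval 6234 to 6437) against 29.2 CPM. *Serpina3k*, *Serpina3n* and *Serpina3m*, abundant in adult liver or on inflammation, had 0 UMIs.

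Transcription factors were read at low levels, and 8 of 17 tested were higher (all genes, 4.00%). Of 27 read, 10 were not tested, and of the 7 that passed the filter in the other cells alone 1 was higher. *Hnf4a*, a nuclear receptor that holds the hepatocyte state, had 88.3 CPM and a UMI in 61.8% of the hepatocyte-like cells (interval 54.7 to 68.6%), against 0.433% of the other kept cells and 0.447% of Ter119-high cells, an erythroid class that should lack it and that had a median depth of 4302.5 UMIs. *Onecut2*, *Creb3l3*, *Foxa3* and *Prox1*, factors of hepatoblast growth and liver metabolism, had 102, 99.6, 96.6 and 79.9 CPM, and at most 0.64 CPM in the other cells. *Foxa2* was at 39.7 CPM and *Foxa1* at 23.8 CPM, and *Cebpa*, a factor of hepatocyte maturation, at 34.7 CPM against 2.62. *Cebpb* was alike in both, at 81.2 and 82.5 CPM, a ratio of 0.98 (interval 0.85 to 1.14).

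Of 9 hepatoblast and bile duct genes tested, 5 were higher (all genes, 4.00%). Of 7 that passed the filter in the other cells alone, 4 were higher, out of 17 read. *Met* and *Cdh1*, a growth factor receptor and an adhesion protein, were at 37.2 against 2.06 CPM and 26.8 against 0.21 CPM, with plain ratios of 18.1 and 130.1, and did not pass only because 10 CPM was added. *Sox4* was at 5.02 against 26.2 CPM. *Dlk1* was at 2621 CPM, the surface proteoglycan gene *Gpc3* at 628 CPM, and the epithelial keratins *Krt18* and *Krt8* at 441 and 348 CPM. *Krt19*, *Krt7*, *Epcam*, *Spp1* and *Cldn2*, genes of bile duct or early hepatoblast epithelium, had 0 UMIs in all 199 cells, which allows a share of up to 1.51% of cells with a UMI (3 counts), and *Sox9* had 2 UMIs. Imprinted genes of fetal growth were higher in 12 of 16 tested (all genes, 4.00%), and in 11 of the 15 that passed the filter in the other cells alone. *H19* and *Meg3* had 3541 and 2672 CPM, *Igf2*, the fetal growth factor, 808 CPM, *Cdkn1c*, an inhibitor of cell division, 856 CPM, and *Gnas* 546 CPM, close to the 512 CPM of the other cells.

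Metabolic genes were uneven within each pathway. In the urea cycle and amino acid list 10 of 20 tested were higher (all genes, 4.00%), and 5 of the 11 that passed the filter in the other cells alone, out of 26 read. *Otc* had 283 CPM, *Asl* 181 and *Ass1* 80.3 CPM, whereas *Cps1*, which feeds the cycle, had 2 UMIs. *Tat*, *Tdo2* and *Sds*, enzymes of amino acid breakdown, had 1, 0 and 0 UMIs. In the glucose list 4 of 12 were higher (all genes, 4.00%), and 2 of the 10 that passed in the other cells alone, out of 16 read. The higher genes included *Gys2* (136 CPM), the glucose transporter *Slc2a2* (99.2) and *Pygl* (95.8). *G6pc* and *Pck1*, enzymes of glucose release, had 0 UMIs and 1 UMI. For cytochrome P450 and conjugation genes, 4 of 9 tested were higher (all genes, 4.00%), 2 of them among the 6 that passed in the other cells alone (25 were read), with *Gstm1* at 1063 CPM and *Cyp2d10* at 64.0 CPM, and *Cyp3a11*, *Cyp1a2* and *Cyp2c29* had 2, 2 and 0 UMIs. Of 15 bile acid and transporter genes read, 3 were tested, and 2 of these were higher (all genes, 4.00%). Among the 2 that passed the filter in the other cells alone, 1 was higher. The list summed to 215 CPM against 47.2 CPM in the other kept cells, a ratio of 4.56 (interval 4.14 to 5.02). *Amacr* was its most abundant gene. *Cyp7a1*, the rate-limiting enzyme of bile acid synthesis, had 3 UMIs, and the export pump *Abcb11* had 20.

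Of 20 cholesterol synthesis genes tested, 16 were at least 4-fold higher on CPM plus 10 (all genes, 4.00%). The other 4 (*Pmvk*, *Stard4*, *Insig1* and *Srebf2*) had plain ratios of 2.38 to 4.53. The list summed to 3891 CPM (interval 3812 to 3971) against 420 CPM, a ratio of 9.26 (interval 9.04 to 9.49), led by *Fdps* (602 CPM), *Msmo1* (441) and *Hmgcs1* (391). Fatty acid genes were higher in 10 of 25 (all genes, 4.00%), with *Fabp1* at 1006 CPM and *Scd2* at 563 CPM. Genes of the endoplasmic reticulum, where secreted proteins fold, were higher in 4 of 40 (all genes, 4.00%), the chaperones *Hsp90b1* (1724 CPM), *Hspa5* (1372), *Pdia6* (904) and *Pdia4* (287), and the list's median log2 ratio was 1.09 beside -0.10 for all genes. Of the most abundant genes outside these lists, *Fabp5* had 5625 and 960 CPM, a ratio of 5.86 (interval 5.75 to 5.97), and the antioxidant enzyme gene *Prdx1* had 4318 and 661 CPM. On CPM plus 10, iron genes gave 0 of 16 in either direction (all genes, 4.00% and 1.41%), so that the count alone says little. Ferritin *Fth1* was at 2438 against 5899 CPM, the transferrin receptor *Tfrc* at 39.3 against 187 CPM, and the iron hormone genes *Hamp* and *Hamp2* had 0 UMIs. *Tmprss6*, a membrane protease of iron control, and *Slc39a14*, a metal transporter, were at 28.9 against 0.22 CPM and 29.7 against 1.42 CPM. On plain CPM *Tmprss6* and *Slc39a14* were more than 4-fold higher and *Tfrc* more than 4-fold lower. They did not pass only because 10 CPM was added.

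**Figure D3:**
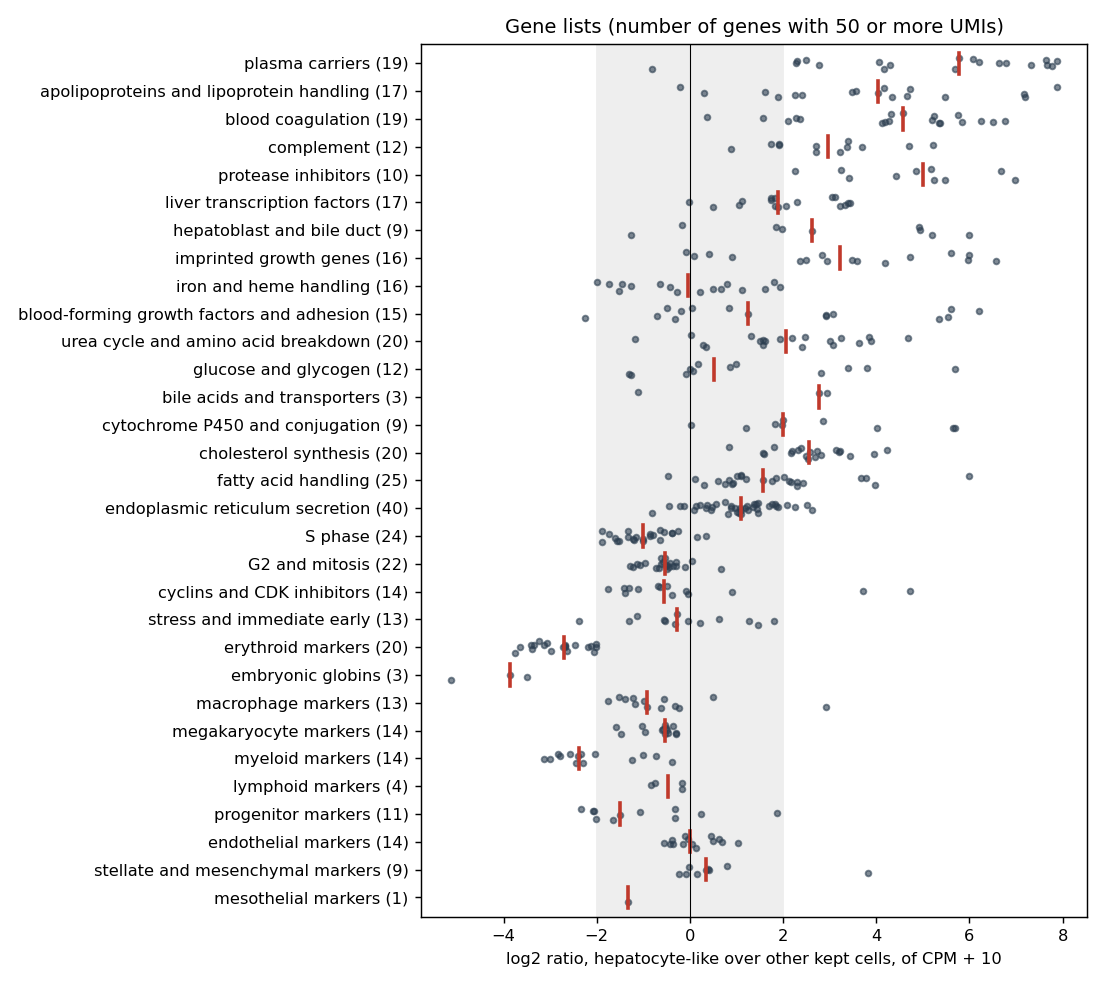
The log2 ratio of hepatocyte-like over other kept cells (CPM plus 10) for each gene with at least 50 UMIs in 31 lists, 1 point per gene, with the list's median as a red line and the range under 4-fold in grey. Medians run from -3.86 for embryonic globins to 5.78 for plasma carriers.

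Genes for factors that act on blood-forming cells were present. Of 30 genes read 15 were tested, and of these 7 were higher (all genes, 4.00%; 6 of the 14 that passed in the other cells alone) and 1 was lower (all genes, 1.41%), *Tgfb1*, at 12.6 against 97.1 CPM. *Kitl*, the ligand of cKit, stood at 79.1 CPM against 0.60 in the other cells, a ratio of 132 (interval 90.5 to 199), and had a UMI in 53.3% of hepatocyte-like cells and 0.405% of others. *Cxcl12*, a chemokine that retains progenitors, was at 82.0 and 2.11 CPM. *Thpo*, the growth factor of megakaryocytes and stem cells, was at 10.9 CPM with a UMI in 26 of 199 cells, beside 5 of 7156 other cells and 0 of 1790 Ter119-high cells, which allows a share of up to 0.168%. The matrix proteins *Vtn* and *Fn1* had 664 and 574 CPM. *Vcam1*, an adhesion molecule also used as a macrophage marker, was at 127 CPM with a UMI in 67.3% of cells, while the macrophage genes *C1qa*, *C1qb*, *C1qc* and *Cd5l* were at 0.42 to 4.18 CPM. *Reln*, listed among stellate cell markers, was at 177 CPM with a UMI in 79.9% of cells, and the other genes of that list were at 15.5 CPM or less. *Epo*, made in fetal liver under low oxygen, *Hgf*, *Bmp4* and *Wnt5a* had 0 UMIs.

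Cell cycle genes were lower in sum than in all other kept cells. On CPM plus 10, 0 of 24 S phase genes and 0 of 22 genes of G2 and mitosis were 4-fold different (all genes, 4.00% higher and 1.41% lower, at which a list of this size would hold few). S phase genes summed to 2054 CPM (interval 1997 to 2112) against 4767 CPM in the other kept cells, a ratio of 0.431 (interval 0.419 to 0.443). G2 and mitosis genes summed to 3718 CPM (interval 3641 to 3797) against 5390 CPM, a ratio of 0.690 (interval 0.675 to 0.705). Against cKit-high cells, the closest in depth, the ratios were 0.473 and 0.803, against C1q cells 0.970 (interval 0.912 to 1.03) and 1.14, and against *Pf4* cells 1.11 (interval 1.05 to 1.18) and 1.18 (interval 1.13 to 1.24). With globin UMIs left out of both totals, the ratios to all other cells were 0.384 and 0.615. Within the lists *Cdk1* was higher, at 295 against 183 CPM, and *Tyms*, an enzyme of thymidylate synthesis, had a ratio of 1.11, while *Slbp*, *Rrm2* and *Fen1* had ratios of 0.26, 0.29 and 0.24. On plain CPM *Fen1* was thus past 4-fold, and with 10 CPM added it was not. The D cyclins differed in kind. *Ccnd1* stood at 251 against 9.84 CPM, *Ccnd2* at 45.2 against 109 and *Ccnd3* at 106 against 384 CPM.

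The antibody library gave an independent readout, since the rule used no antibody. The barcodes of CD71, Ter119, CD44 and cKit, which had lower medians in the hepatocyte-like cells, and that of the control are shown because their counts are given here.
CD71: CGAAGAAGGAGT
Ter119: GAGGCGATTGAT
CD44: GTCTAGACTTCG
cKit: AAGCGCTTGGCA
control IgG: CGGAGTAGTAAT
The hepatocyte-like cells carried few antibodies in all, with 27 to 8062 counts per cell and a median of 268, against a median of 1122 in the other kept cells. CD71 ranged from 3 to 2885 counts with a median of 99 (interval of the median 90 to 113), against a median of 527 (interval 503 to 560) in the others. Only 21 of the 199 cells reached the median of all kept cells, 505 counts. The median of CD44, an adhesion receptor of blood cells, was 26 against 131, that of cKit 24 against 48 and that of Ter119 9 against 24. The ranges of single cells overlapped for each of these antibodies, with highest counts in hepatocyte-like cells of 1166, 1145 and 282. The transcripts were low as well, *Cd44* at 2.51 against 40.05 CPM and *Kit* at 3.35 against 27.7 CPM. As a median share of a cell's antibody counts, Ter119 and cKit were higher, at 3.47% against 1.78% and 9.30% against 4.35%. The shares of CD71 and CD44 were lower, at 37.0% against 61.7% and 10.4% against 12.7%. Low Ter119 counts were not particular to these cells, with medians of 5 in antibody-low, 6 in cKit-high and 10 in *Pf4* cells.

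Some antibodies against blood cell proteins gave more counts on the hepatocyte-like cells than on the others. The median was 24 against 12 for CD45R, 15 against 7 for CD3e, 14 against 7 for CD41 and 13 against 6 for CD11b. Of the target genes of CD45R, CD11b and CD3e, *Ptprc* was at 0.418 CPM, and *Itgam* and *Cd3e* had no UMI. *Cd3e* was also at 0 in all other kept cells. *Itga2b*, the target gene of CD41, was at 10.0 against 17.7 CPM. cKit-high cells, with a median depth of 10733 UMIs beside 13001, had medians of 13 for CD45R and 7 for CD3e. C1q cells were above the hepatocyte-like cells for CD45R, CD3e, CD41 and CD11b, with medians of 36.5, 21, 30 and 202. *Pf4* cells had medians of 18, 11, 2719 and 11 for the same antibodies. The control IgG had a median of 0 in each group and a highest count of 2 in the hepatocyte-like cells. Among these cells, CD45R counts went with total UMIs (Spearman's rho 0.388 over 199 cells of 1 library), and so did CD71 counts (rho 0.529). The part of depth in these counts was not tested.

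**Figure D4:**
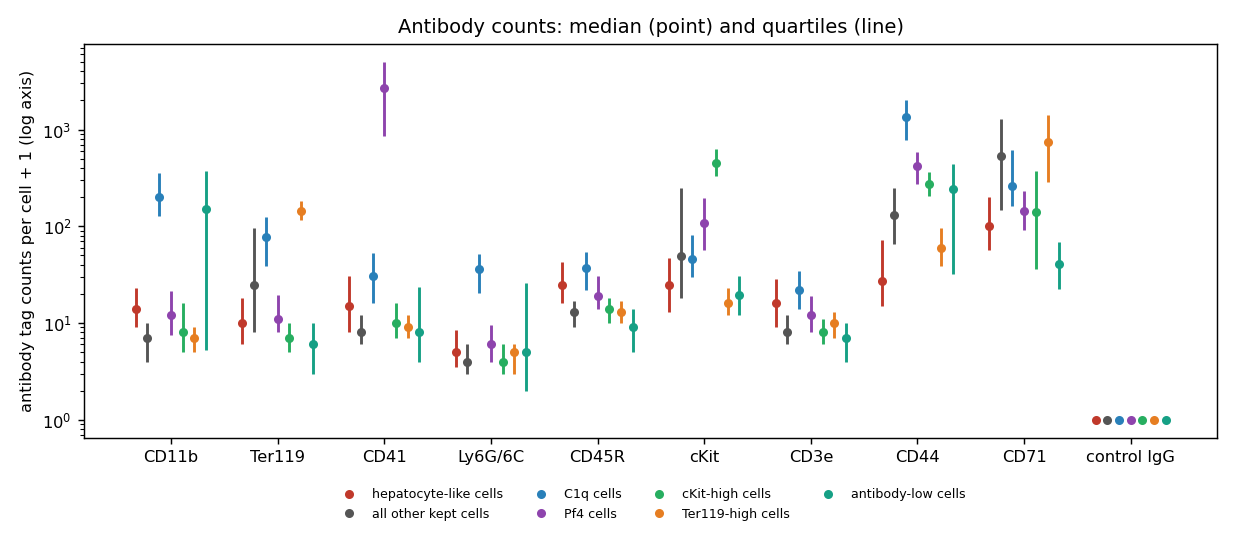
Antibody tag counts per cell plus 1 (log axis) in 7 groups, with the median as a point and the quartiles as a line. Hepatocyte-like cells (red) have medians of 99 for CD71 and 26 for CD44, below the other kept cells (527 and 131), and 24 for CD45R, above them (12).

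All 20 erythroid markers tested were at least 4-fold lower than in the other kept cells (all genes, 1.41%), as were 3 of 3 embryonic globins. The other kept cells are largely erythroid, and the summed erythroid list stood at 14051 CPM in the hepatocyte-like cells, 9192 in *Pf4*, 11561 in cKit-high, 31418 in antibody-low and 452704 CPM in Ter119-high cells. Among the 10 genes with the smallest ratios were the embryonic globins *Hbb-y*, *Hba-x* and *Hbb-bh1*, the carbonic anhydrase gene *Car2*, the heme enzyme gene *Alas2*, the blood group gene *Rhd*, *Cd24a*, *Trim10* and *Klf1*. *Hbb-y* had 130 against 4839 CPM, and *Klf1*, an erythroid transcription factor, 37.2 against 496 CPM. Against antibody-low cells 7 of these 10 genes were lower by less than 4-fold.

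Adult globin (*Hba-a1*, *Hba-a2*, *Hbb-bs* and *Hbb-bt* summed, since near-identical copies can share reads) was read in every cell. It stood at 13271 CPM pooled (interval 13125 to 13418) against 114820 CPM in the other kept cells, a ratio of 0.116. The median cell had 7925 CPM, and the cKit-high and *Pf4* cells had medians of 8046 and 7803 CPM. The lowest kept cell of any group had 2419 CPM. The pooled value rested on few cells. In the 14 cells at or above 20000 CPM, a limit set after the values were seen, lay 45.0% of the globin UMIs, all 14 had Ter119 counts of at least 42, and their median CD71 count was 1375.5. The other 185 cells ranged from 4302 to 16338 CPM. By Ter119, the 159 cells under the median of kept cells (23 counts) had 7904 CPM pooled (interval 7775 to 8034). The 40 at or above it, which include the 14, had 30771 CPM (interval 30313 to 31233). The medians of the 2 sets were closer, at 7765 and 10246 CPM, and globin and Ter119 counts had a Spearman's rho of 0.199 over the 199 cells. *Alb* stayed high in both sets, at 18506 and 15026 CPM. Scrublet called 2 of the 14 cells doublets.

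**Figure D5:**
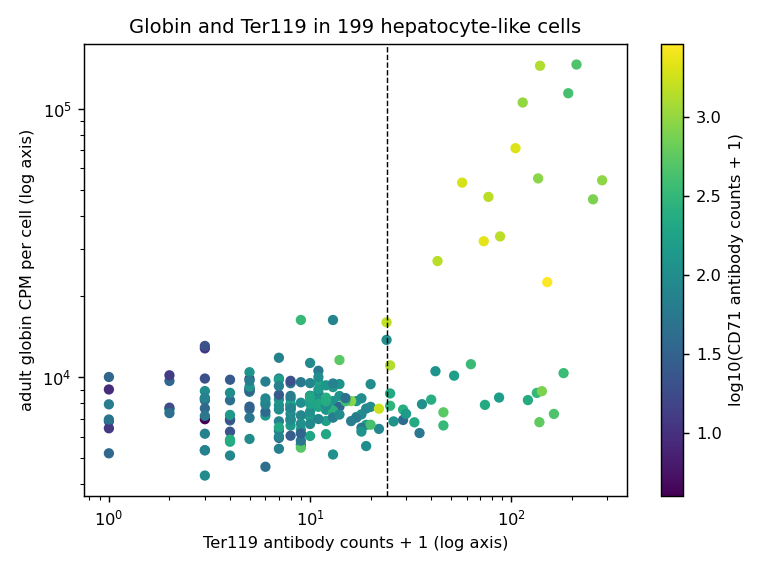
Adult globin CPM against Ter119 antibody counts plus 1 (both log axes) for the 199 hepatocyte-like cells, coloured by CD71 counts, with the median Ter119 count of kept cells as a dashed line. The 14 cells above 20000 CPM all lie to the right of the line, where the other 26 cells are under 20000 CPM.

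Markers of some other cell types rested on few cells. Of the megakaryocyte list, 13 of 14 genes were read and their sum was 381 CPM against 624, but 1 cell held 85.4% of these UMIs. That cell had 607 *Pf4* UMIs and 6847 CD41 antibody counts, and *Pf4* was at 286 CPM with it and 32.0 CPM without it. Of the myeloid list 13 of 14 were read (197 against 1492 CPM), *Ly6c2* being at 0, and 1 cell, which Scrublet called a doublet, held 82 of the 87 *Elane* UMIs and 48.2% of the list's. The macrophage list summed to 156 against 179 CPM with *Vcam1* as its most abundant gene and *Vsig4* and *Cd163* at 0, and 148 of the 199 cells held a UMI of it. The endothelial list (13 of 14 genes, 157 against 162 CPM) was led by *Egfl7*, which was at 64.0 CPM with a UMI in 101 cells. The lymphoid, progenitor and mesothelial lists summed to 7.11, 116 and 4.18 CPM, against 29.5, 488 and 23.2 CPM.

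A set of 7 cells stood apart, found by the spread of *Mest* after the values were seen. *Mest*, an imprinted gene of fetal mesoderm, had 14 to 47 UMIs in each of the 7 cells and at most 2 in the other 192. These 7 cells held 48.9% of all endothelial list UMIs, at 2000 CPM of that list against 83.5 CPM in the other 192 cells. They held 41 of 44 *Lyve1*, 23 of 24 *Stab2* and 21 of 25 *Kdr* UMIs, genes of liver sinusoid lining, and 36 of 37 *Lum* and 31 of 34 *Dcn* UMIs, genes of fibroblasts. The fibroblast genes rested on 1 cell, which alone held 35 of the *Lum* and 27 of the *Dcn* UMIs. Their *Alb* was 11630 CPM against 17932 CPM and their median share of the 3 rule genes 3.24% against 5.46%. Scrublet called 0 of the 7 doublets. Leaving out the 22 cells with marked counts of another type (these 7, the 14 with high globin, and those with at least 20 UMIs of *Pf4* and *Ppbp* or of *Elane*, a choice made after the values were seen), 449 of the 451 higher genes and 159 of the 159 lower genes kept their calls, with 469 and 208 in all.

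The hepatocyte transcripts were also found outside the group, at low levels that differed between classes of cells. Over the 7139 kept cells under 0.2% for the rule genes, 19 plasma protein genes with at least 1000 CPM in the hepatocyte-like cells were read at a small share of that level. For the 14 of the 19 that are neither rule genes, which chose these cells, nor *Apoe* or *Sepp1*, this share lay between 0.344 and 0.631%, with a median of 0.440%, and in Ter119-high cells between 0.596 and 1.09%. Over all 19 genes the median share was 0.312% in cKit-high, 0.385% in antibody-low, 0.515% in *Pf4* and 0.851% in Ter119-high cells, and the lowest single value was 0.0905%, for *Serpina6* in antibody-low cells. *Apoe* (3.59%) and *Sepp1* (5.12%) were higher. Both were high in the C1q cells, *Apoe* at 56.6% and *Sepp1* at 159% of the hepatocyte level, and *Trf* reached 5.68% there. Free RNA from broken cells adds such UMIs to all droplets of a library, and its part here was not tested. *Afp* had a UMI in 53.2% of the other kept cells for this low level, beside 60.5% of Ter119-high cells with a median depth of 4302.5 UMIs.

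The leading genes differed in how much they varied among the hepatocyte-like cells. Each cell was thinned to 2000 UMIs to remove the difference in depth, and the spread beyond counting noise was taken relative to the mean, as an excess coefficient of variation (CV). The 584 genes with at least 0.5 thinned UMIs per cell had a median excess CV of 0.27. It was 0.18 for *Dlk1*, close to that median for *Serpina6* (0.28), and further above it for *Alb* (0.44), *Ttr* (0.49) and *Trf* (0.52). The rule genes *Rbp4*, *Afp* and *Apoa1* had 0.27, 0.32 and 0.42, in cells kept only where these genes were high. *Ahsg* (fetuin), *Fabp1* and *Meg3* spread more, at 0.66, 0.63 and 0.55, and *Meg3* had 0 thinned UMIs in 15 cells. *Alb* went with *Afp* (Spearman's rho 0.751) and with *Ttr* (0.688) across the 199 cells, a description over cells of 1 library. The 10 most variable of the 584 genes were *Tmsb4x*, the 4 adult globin genes, *Ube2c*, *Actb*, *Hist1h2bc*, *Mpc1* and *Gpx1*. *Tmsb4x*, an actin-binding protein gene abundant in platelets, had 26.1% of its UMIs in the cell with the *Pf4* UMIs. *Ube2c*, a mitotic enzyme gene, had an excess CV of 1.17 and 0 thinned UMIs in 131 cells. Thinned to 3000 UMIs, 5 of these 10 genes were again among the first 10.

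*Actb*, which encodes cytoplasmic actin, varied with depth here and, to a differing degree, in other classes of cells. Spearman's rho of its level with total UMIs was -0.58 over the 199 cells, -0.53 over cKit-high and -0.52 over *Pf4* cells, -0.23 over C1q cells, -0.18 over antibody-low cells, and 0.0077 over Ter119-high cells, each over cells of 1 library. It had quartiles of 681, 1064 and 3655 CPM over the 199 cells. In the 67 shallowest cells (median 5015 UMIs) it was at 4187 CPM pooled (interval 3979 to 4402), and in the 66 deepest (median 17087.5 UMIs) at 1117 CPM (interval 1057 to 1179). *Insig1*, a sensor of sterols, went from 266 to 56.1 CPM between the same sets. *Alb* went from 19372 to 15917 CPM and *Ttr* from 10716 to 6765 CPM, while *Dlk1* was at 2453 and 2614 CPM. Median CD71 counts were 53 and 128.5. What part depth has in these differences was not tested.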

How the data were processed

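The authors mapped the reads of the cDNA library, made on the 10x Genomics platform, to mm10 with Cell Ranger and deposited whole UMI counts per gene and cell. The deposited antibody file holds raw counts per antibody and cell for the same 7863 barcodes. The submitters' processing notes also name Seurat. Cells were filtered as given above, levels were pooled as CPM, the 4-fold calls and the order of genes were taken on CPM plus 10 over genes with at least 50 UMIs, and printed ratios are of plain CPM. Intervals are exact at 95% (Poisson, Clopper-Pearson, and binomial for ratios and medians). The floor for 0 counts is 3 counts. The fold step and the spread measure were tested on simulated data. Doublets were called by Scrublet (scanpy 1.11.5, expected rate 6%) but kept.

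The cells, lists, groups and the rule for named genes were chosen with earlier results of these data known. The rule named the 25 largest and 10 smallest ratios, the 15 most abundant genes that are neither mitochondrial nor ribosomal, the 10 most variable, and the 4 most abundant of each list, with other list genes as values. A few genes that the rule names are not reported here. With 1 library no comparison has a test. Python 3.11.15, numpy 2.4.6, scipy 1.17.1 and pandas 2.3.3 were used.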

Additional observations from a re-analysis of the deposited data

How the results depend on the processing

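At 2390283 UMIs over 199 cells a gene with 0 UMIs may be at up to 1.26 CPM, and 1 library gives no error between animals. No paired analysis was possible because there is 1 library of each kind. The share of kept cells (2.71%) stayed within its interval except without the mitochondrial limit (4.49%). The counts of genes at 4-fold or more (451 higher, 159 lower) stayed within 1.5 times under all alternatives but a pseudocount of 1 CPM (989 and 641). Against antibody-low cells 405 and 236 passed, and 47 of the 159 lower genes were shared. Of the 35 genes named by ratio, 7 (among them *Car2*, *Cd24a*, *Trim10*, *Klf1*, *Alas2* and *Rhd*) stayed lower but under 4-fold there, and all 35 kept their direction under each alternative. Antibody medians stayed within their intervals.

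The S phase sum (2054 CPM) moved to 2151 at a limit of 0.5%, 2144 with *Alb* in the rule, 1973 both without doublets and without cells holding markers of another type, 1955 without the mitochondrial limit, 1961 in cells with Ter119 under the median, and 1947 as a mean over cells. The G2 and mitosis sum (3718 CPM) moved to 3349 without the mitochondrial limit and 3517.5 as a mean over cells. Pooled adult globin (13271 CPM) moved to 13709 at 0.5%, 12915 at 2%, 13607 with *Alb* in the rule, 12964 without doublets, 12469 without the mitochondrial limit, 7904 in cells with Ter119 under the median, 8041 without cells holding markers of another type, and 7925 as the median cell. Of the 10 most variable genes, 5 were again in the first 10 at 3000 UMIs, where 3 shallower cells were left out. The cause of these moves was not tested, other than the globin of the cells left out by construction.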

Other observations

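The 153 cells above the mitochondrial limit that pass the 3-gene rule were compared with the 199 below it, with mitochondrial UMIs left out of the totals. They were shallower, with a median of 6491 UMIs against 13001, and held a median of 12.1% mitochondrial UMIs. Of 6158 genes with at least 50 UMIs in both sets together, 1 was 4-fold higher in the 199 cells and 0 were 4-fold lower, and that gene was *Pf4*, which rests on 1 cell. *Alb*, which the rule did not use, had 19010 CPM in the kept cells and 21061 CPM in the removed ones (ratio 0.90, interval 0.89 to 0.92). *H19* had 3806 and 5590 CPM (ratio 0.68, interval 0.66 to 0.70), *Meg3* 2872 and 4185 CPM (ratio 0.69), and *Hnf4a* 94.9 and 155 CPM (ratio 0.61, interval 0.50 to 0.76). Other genes were higher in the 199 cells, with ratios of 1.17 for *Serpinc1* (interval 1.08 to 1.27), 1.14 for *Hspa5* (interval 1.07 to 1.22) and 1.12 for *Serpina6* (interval 1.08 to 1.16). The removed cells had median CD71 and Ter119 counts of 88 and 11, against 99 and 9.

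The limit also differed between the other groups of cells. For this the groups were formed again on the cells before the mitochondrial limit. The antibody cutoffs shifted with them, so the antibody groups are not exactly those above. The limit removed 14.9% of C1q cells (15 of 101, interval 8.56 to 23.3%), 11.2% of *Pf4* cells (9 of 80) and 7.35% of antibody-low cells (10 of 136). It removed 4.98% of cKit-high cells and 2.70% of Ter119-high cells. All were under the 43.5% of cells that pass the 3-gene rule. Metallothioneins *Mt1* and *Mt2* summed to 3754 CPM in the hepatocyte-like cells and 1151 CPM in the other kept cells, a ratio of 3.26 (interval 3.19 to 3.33). *Fos*, *Fosb*, *Hspa1a* and *Hspa1b*, early response and heat shock genes, had 0 UMIs in them. *Egr1* had 39 UMIs, at 16.3 against 0.935 CPM. *Hlf*, listed among progenitor markers, was at 36.8 CPM against 2.84 CPM and had a UMI in 32.7% of the hepatocyte-like cells.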
